A study of Homo sapiens with 13 samples.

Results

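The comparison described here is that of day 11 with day 5 under continued doxycycline in human neurons made from embryonic stem cells by forced expression of NEUROG2. It rests on 2 of the 13 RNA sequencing libraries of the series, chosen by their labels: 1 library from cells harvested on day 11 and 1 from cells harvested on day 5. Both cultures were hES-N1 cells, a stable line derived from H9, an established human embryonic stem cell line, which carry an inducible NEUROG2 gene. The day 11 dox culture had 1 µg/ml doxycycline for 11 days, through 2 days in E8, a stem cell medium, and 9 days in 3N, a neural medium. The day 5 dox culture had the same dose for 5 days, through 2 days in E8 and 3 days in 3N. Neither received FGF2, and each RNA came from 1 well of a plate coated with Matrigel. The promoter that drives NEUROG2 and the number of clones behind the line are not given in the sources used here. The labels file both libraries under differentiation, and the pair shows how the induced cells differ between an early and a later harvest while the inducer stays on.

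Libraries outside this pair are set beside it. In the same run, day 11 control and day 5 control came from hES-N1 cells kept in the same media without doxycycline, 1 library each. In another run, hES-N2G1 and hES-N2G2 cultures had 1 µg/ml doxycycline for 6 days, through 2 days in E8 and 4 days in 3N, and no FGF2. They were harvested on day 6 (day 6 control) or, after 6 more days in 3N without doxycycline, on day 12 (day 12 control), 2 libraries each.

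NEUROG2 is a proneural transcription factor of the basic helix-loop-helix (bHLH) family. It binds E-box sequences in DNA as a dimer with an E protein and switches on further bHLH factors, which carry a cell out of the cycle and into neuronal differentiation. In the embryo such factors act briefly: newborn neurons pass through a short phase with high NEUROD and NHLH factors and Notch ligands, and later acquire the ion channels and transmitter receptors of an excitable cell. In the cultures studied here the inducer keeps the first step of this cascade switched on artificially.

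The day 11 dox library held 35001512 counted reads and the day 5 dox library 47159475. Levels are given as counts per 1000000 (CPM), scaled by the trimmed mean of M values (TMM) over the 5 libraries of the run, and ratios as the difference of log2(CPM + 1), day 11 over day 5, which understates the change of low genes. With 1 library a side there is no replicate error and no test, and a difference between these libraries need not be one between the days. Counting error is small at this depth: 3 counts, the limit that a count of 0 allows, equal 0.0909 CPM on day 11 and 0.0725 CPM on day 5. Mitochondrial genes held 5.12% of the counts on day 11 and 4.29% on day 5.

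The labelled cell type was checked against its markers. The neuronal genes STMN2, DCX, INA and MAP2 had 3666, 3337, 2612 and 1587 CPM on day 11, with 4019, 2838, 2717 and 1600.5 CPM on day 5, against at most 9.76, 13.2, 22.7 and 234 CPM in the uninduced libraries of days 11 and 5. The stem cell factors POU5F1 and NANOG were at 5.54 and 0.121 CPM on day 11, with 5.03 and 0.121 CPM on day 5. SLC17A6, the vesicular glutamate transporter that marks many excitatory neurons, was at 275 CPM on day 11 and 304 CPM on day 5, and the GABA synthesis genes GAD1 and GAD2 were under 1 CPM on both days. The markers are thus those of neurons with a glutamate transporter on both days. Genes that handle acetylcholine, given further below, were also present, so these markers do not settle a transmitter type. NEUROD1, a bHLH factor taken as a neuronal marker with NHLH1 and NEFL, was at 0.848 CPM on day 11, with 24.9 CPM on day 5, so by this gene the day 11 library does not carry the marker.

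Most of the transcriptome differed little between the days. Of 11465 genes at 10 CPM or more in either library, 85 were at least 4-fold higher on day 11 (0.741%) and 140 were at least 4-fold lower (1.22%). At a 2-fold threshold 400 genes were higher (3.49%) and 509 lower (4.44%). The median log2 ratio of all these genes was -0.07, with quartiles of -0.35 and 0.20. The share of higher genes among those past 4-fold was 37.8%. It was 38.8 to 42.1% with other scalings of the counts and 21.9% with the authors' deposited normalized values, with which 62 genes were higher and 221 lower and the median ratio of all genes was -0.39. In that deposited table the factor that turns a count into a value takes 6 levels and changes from gene to gene within a library, so that the ratio of the factors of the 2 libraries ranged from 0.798 to 1.197. The deposited values were brought to the CPM scale by the same constant for every library, with no further scaling to each library's total.

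**Figure D1:**
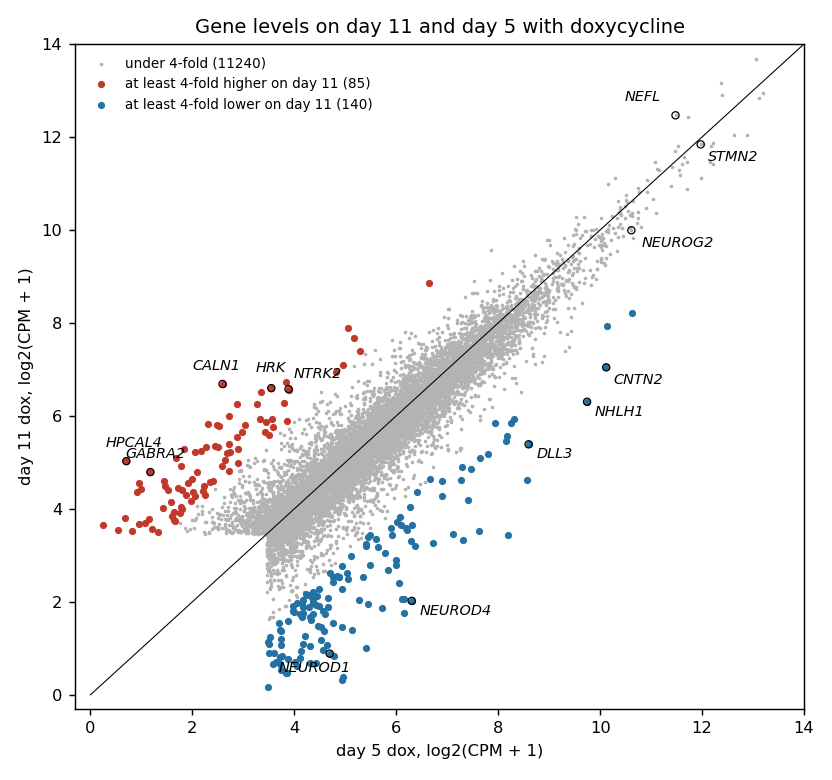
Levels of 11465 genes on day 11 (vertical axis) and day 5 (horizontal axis) with doxycycline, as log2(CPM + 1), 1 library each, 1 point per gene; the line marks equal levels. The 85 genes at least 4-fold higher and the 140 at least 4-fold lower on day 11 are coloured, and STMN2 and NEUROG2 lie near the line while NHLH1 and NEUROD4 lie far below it.

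The inducer's own gene stayed on. NEUROG2 (chromosome 4) was at 1018 CPM on day 11 and 1564 CPM on day 5, a log2 ratio of -0.62, against 6.26 CPM and 1.34 CPM without doxycycline on days 11 and 5. Counts of the cells' own NEUROG2 gene and of the inducible copy are not told apart in the table. The reporter EGFP was at 742 CPM on day 11 and 1290.4 CPM on day 5, a ratio of -0.80, and at 25.8 CPM and 87.2 CPM in the uninduced cultures. The reporter mCherry had 0 counts on day 11 and 4 counts on day 5. NEUROG2 and EGFP were thus both lower on day 11 by less than 2-fold.

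The other proneural factors were far lower on day 11. Of the 12 proneural bHLH genes at 1 CPM or more, NEUROG2 included, all had ratios below 0, with a median of -2.60. Among the 8 at 10 CPM or more, again with NEUROG2, 6 were at least 4-fold lower and none was higher. Of all genes 1.22% were lower by that much. NHLH1, a bHLH factor of newborn neurons, was at 78.0 CPM on day 11 and 856 CPM on day 5 (-3.44), and its relative NHLH2 at 226 and 689.7 CPM (-1.61). NEUROD1, which drives the differentiation of newborn neurons, had a ratio of -3.81, with 28 counts on day 11 and 1029 counts on day 5. NEUROD4 was at 3.06 CPM on day 11 and 78.0 CPM on day 5 (-4.28), and NEUROD2 at 3.82 and 29.7 CPM (-2.67). The NEUROD and NHLH factors were thus lower in a library that still held NEUROG2 at 1018 CPM, and of them NHLH1 and NHLH2 were still well above 10 CPM. BHLHE22, a factor of differentiating neurons, was at 0.909 CPM on day 11 and 16.6 CPM on day 5 (-3.21), and OLIG2, a progenitor factor, at 1.15 and 17.0 CPM (-3.07). OLIG3 had 0 counts on day 11 and 196 counts on day 5, and NEUROG1 had 1 count on day 11 and 126 counts on day 5. ATOH1 and NEUROD6, bHLH factors of other neuron types, had 0 counts on both days.

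The promoters of these genes are shown because most of the genes differed together and because proneural factors bind E-boxes. NEUROG2, the induced gene, differed by less than 2-fold, and its counts do not tell its own copy from the inducible copy. RefSeq windows (GRCh38.p14) of the 250 bases before the gene start were at hand for 6 of the 8 proneural genes at 10 CPM or more. They are printed 5′ to 3′ on the strand of the gene, and capitals mark CAGATG, the E-box form favoured by proneural factors (searched on both strands, as CAGATG and CATCTG). The windows are chr1:160366821-160367070 on the plus strand for NHLH1, chr1:115841127-115841376 on the minus strand for NHLH2 and chr17:39607921-39608170 on the minus strand for NEUROD2. Those without a match are chr2:181680518-181680767 on the minus strand for NEUROD1, chr12:55019724-55019973 on the plus strand for NEUROD4 and chr4:112516181-112516430 on the minus strand for NEUROG2. The remaining genes of the 8 are OLIG2 and BHLHE22.
NHLH1: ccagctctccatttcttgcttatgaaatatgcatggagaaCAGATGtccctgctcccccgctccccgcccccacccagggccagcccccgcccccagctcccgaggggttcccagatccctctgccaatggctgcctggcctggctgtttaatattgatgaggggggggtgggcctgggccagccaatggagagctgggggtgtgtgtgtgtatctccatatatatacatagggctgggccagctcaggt
NHLH2: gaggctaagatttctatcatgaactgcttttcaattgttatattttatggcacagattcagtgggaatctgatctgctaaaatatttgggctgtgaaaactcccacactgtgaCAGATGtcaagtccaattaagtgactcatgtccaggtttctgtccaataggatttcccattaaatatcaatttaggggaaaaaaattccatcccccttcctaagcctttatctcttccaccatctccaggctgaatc
NEUROD2: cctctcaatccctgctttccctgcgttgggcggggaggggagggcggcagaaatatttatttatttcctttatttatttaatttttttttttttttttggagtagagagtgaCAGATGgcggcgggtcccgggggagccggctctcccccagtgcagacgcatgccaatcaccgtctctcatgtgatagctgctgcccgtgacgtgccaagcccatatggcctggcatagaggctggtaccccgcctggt
NEUROD1: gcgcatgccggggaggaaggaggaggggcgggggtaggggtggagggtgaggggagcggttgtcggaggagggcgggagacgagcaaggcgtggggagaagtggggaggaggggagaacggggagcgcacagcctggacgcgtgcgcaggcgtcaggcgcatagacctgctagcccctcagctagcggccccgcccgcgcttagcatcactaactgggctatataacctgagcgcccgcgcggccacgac
NEUROD4: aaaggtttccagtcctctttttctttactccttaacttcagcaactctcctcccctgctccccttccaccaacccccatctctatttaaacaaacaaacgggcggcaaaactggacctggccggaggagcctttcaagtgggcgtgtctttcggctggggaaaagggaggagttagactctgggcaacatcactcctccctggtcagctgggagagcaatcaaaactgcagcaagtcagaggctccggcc
NEUROG2: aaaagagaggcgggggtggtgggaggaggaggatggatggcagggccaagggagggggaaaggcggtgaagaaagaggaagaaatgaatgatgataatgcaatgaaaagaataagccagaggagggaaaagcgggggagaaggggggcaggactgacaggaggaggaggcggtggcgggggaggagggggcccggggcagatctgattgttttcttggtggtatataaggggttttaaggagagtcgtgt

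The E-box was found in the windows of NHLH1, NHLH2 and NEUROD2, 1 match each, whose first base lay 210, 137 and 138 bases before the gene start. It was not found in those of NEUROD1, NEUROD4 and NEUROG2, and NEUROD1 and NEUROD4 had the lowest ratios of the 6 genes. Of all 27305 RefSeq windows of this length 12.2% hold the motif, as do 7.55% of the 8091 windows of genes at 10 CPM or more. Of the genes at least 4-fold lower on day 11, 9 of 93 with a window hold it, and of those at least 4-fold higher 5 of 59 do. A match is a run of letters only, and binding was not measured.

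Factors that act just after the proneural step were in part lower and in part kept. The median of the 26 neurogenic transition factors at 1 CPM or more was -0.47. Of 25 at 10 CPM or more, 3 were at least 4-fold lower and none higher, where 1.22% of all genes were lower. The 3 were the zinc finger factors ST18 (9.94 CPM on day 11 and 137 CPM on day 5, -3.65), INSM1 (28.9 and 156 CPM, -2.39) and INSM2 (2.21 and 16.8 CPM, -2.47), which are expressed transiently in differentiating neurons. EBF2, a factor of the EBF family, was at 90.6 CPM on day 11 and 349.6 CPM on day 5 (-1.94), while EBF1 was at 221 and 399 CPM (-0.85) and EBF3 at 473 and 767 CPM (-0.70). MYT1, a relative of ST18, was at 185 CPM on day 11 and 271 CPM on day 5, and MYT1L, a repressor of non-neuronal genes, was at 115 and 71.3 CPM (0.68). Among the 3 MYT family genes only ST18 therefore passed 4-fold.

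Notch pathway genes, through which newborn neurons hold their neighbours in an undifferentiated state, were lower. Of 16 at 10 CPM or more, 5 were at least 4-fold lower and none was higher, where 1.22% of all genes were lower. Of the 16 ratios 13 were below 0, where 57.7% of all genes tested were. DLL3, an inhibitory Notch ligand of newborn neurons, was at 40.9 CPM on day 11 and 386 CPM on day 5 (-3.21). The sugar transferases that modify Notch were also lower, MFNG with 0.606 CPM on day 11 and 20.4 CPM on day 5 (-3.73) and LFNG with 1.76 and 22.1 CPM (-3.07). The receptor NOTCH1 was at 1.39 CPM on day 11 and 17.4 CPM on day 5 (-2.94), and HES2, a bHLH repressor, at 0.545 and 15.5 CPM (-3.42). DLL1, a Notch-activating ligand, was at 9.97 CPM on day 11 and 11.6 CPM on day 5 and so differed little. The canonical targets HES1 and HES5 were at or under 1.33 CPM on both days.

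Most remaining stem cell, progenitor and mitosis transcripts were lower on day 11, while S-phase genes had a smaller median difference. All 10 pluripotency genes at 10 CPM or more had ratios below 0, where 57.7% of all genes had. Of these 10 genes 2 were at least 4-fold lower, where 1.22% of all genes were. DPPA4 was at 4.27 CPM on day 11 and 65.8 CPM on day 5 (-3.66), and ZFP42 at 5.94 and 43.7 CPM (-2.69). LIN28A, a regulator of let-7 microRNAs, was at 155 CPM on day 11 and 473 CPM on day 5 (-1.60), so that it was still clearly present in a library with POU5F1 at 5.54 CPM. POU5F1 and NANOG, both under 10 CPM, hardly differed between the days. At 1 CPM or more 13 of 14 pluripotency genes had ratios below 0, and the exception was POU5F1. Of 11 neural progenitor genes at 10 CPM or more, 3 were at least 4-fold lower, against the same 1.22% of all genes. These were ZIC2 (2.64 and 51.8 CPM, -3.86), PAX3 (0.121 and 10.2 CPM, -3.32) and OTX2 (1.94 and 12.0 CPM, -2.15), each given for day 11 and then day 5. SOX2 was at 17.5 CPM on day 11 and 34.7 CPM on day 5 (-0.95). Of 7 mitosis genes at 10 CPM or more none passed 4-fold, where 1.22% of all genes were lower by that much. Of the 7 genes 6 had ratios below 0, against the same 57.7% of all genes. At 1 CPM or more 27 of 29 had ratios below 0, with a median of -0.81. Of 16 S-phase genes at 10 CPM or more none passed 4-fold, against the same 1.22% of all genes lower. Of the 16 genes 11 had ratios below 0, against the same 57.7% of all genes. At least 2-fold lower were 2 of the 16, where 4.44% of all genes were, and none was 2-fold higher. The median of the 32 S-phase genes at 1 CPM or more was -0.25. The proliferation gene MKI67 had 4.09 CPM on day 11 and 11.9 CPM on day 5 (-1.34). The kinase gene CDK6, which acts in early G1 phase, was at 8.24 CPM on day 11 and 82.1 CPM on day 5 (-3.17). In bulk RNA fewer cells of a type and less RNA per cell cannot be told apart, here and for every other group of genes.

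Some readouts of FGF and ERK signalling were lower. Of 15 genes of this list at 10 CPM or more, 3 were at least 4-fold lower and none higher, where 1.22% of all genes were lower. Of the 15 ratios 11 were below 0, where 57.7% of all genes were. ETV1, an ETS factor of the PEA3 group, was at 8.64 CPM on day 11 and 105 CPM on day 5 (-3.46), and its relatives ETV5 (38.4 and 154 CPM, -1.98) and ETV4 (2.76 and 13.2 CPM, -1.92) had ratios just short of -2, on the scale with 1 CPM added. PHLDA1 was at 11.0 CPM on day 11 and 71.6 CPM on day 5 (-2.60). The feedback inhibitors SPRY4 and SPRY2 were at 12.1 and 15.3 CPM on day 11, with 63.7 and 48.4 CPM on day 5 (-2.31 and -1.60). The receptor FGFR1 differed in the other direction, with 155 CPM on day 11 and 75.6 CPM on day 5 (1.02).

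Genes of neurotrophin and GDNF signalling differed in both directions. NTRK2, the receptor of BDNF, was at 94.4 CPM on day 11 and 13.8 CPM on day 5 (2.69). NTRK3, the receptor of neurotrophin 3, was at 35.5 CPM on day 11 and 38.2 CPM on day 5, and the shared low-affinity receptor NGFR at 219 and 232 CPM. Of these receptors NTRK2 was thus higher, and NTRK3 and NGFR differed little. Among the ligands NTF3 was at 0.394 CPM on day 11 and 13.5 CPM on day 5 (-3.38), and BDNF at 12.6 and 3.00 CPM (1.77). The sorting receptors SORCS3 (24.0 CPM on day 11 and 3.00 CPM on day 5, 2.64) and SORCS1 (39.8 and 13.8 CPM, 1.47) were higher, and RET, the signalling receptor of the GDNF family, was at 314 and 404 CPM (-0.37).

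Sensory and autonomic transcription factors were mostly lower. Of 21 at 1 CPM or more 17 had ratios below 0, with a median of -0.79. Of 14 at 10 CPM or more 11 had ratios below 0, where 57.7% of all genes at that level had. Among these 14, 5 were at least 2-fold lower, where 4.44% of all genes were. Only 1 was at least 4-fold lower, EYA2 (2.73 CPM on day 11 and 18.6 CPM on day 5, -2.39), where 1.22% of all genes were. POU4F2, of retinal and sensory neurons, was at 21.7 CPM on day 11 and 63.0 CPM on day 5 (-1.50), and LHX1, a LIM homeodomain factor, at 16.6 and 45.7 CPM (-1.41). ISL1, a LIM homeodomain factor of motor, sensory and autonomic neurons, was at 479 CPM on day 11 and 420 CPM on day 5 (0.19). POU4F1, of sensory neurons, was at 103 CPM on day 11 and 200.4 CPM on day 5 (-0.95), with 27.7% of its exon bases shared with another gene.

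Cholinergic genes differed in both directions, with 7 of 17 at 1 CPM or more above 0 and a median of -0.21. The lowest of the nicotinic receptor subunits were CHRNA3 with 46.6 CPM on day 11 and 288 CPM on day 5 (-2.60), CHRNB4 with 18.5 and 71.4 CPM (-1.89), CHRNA7 with 71.7 and 235 CPM (-1.70) and CHRNA1, the muscle-type subunit, with 0.576 and 11.0 CPM (-2.92). CHRNA5 was lower too (-1.28), whereas some subunits were slightly higher, CHRNA4 with 77.7 CPM on day 11 and 58.6 CPM on day 5 (0.40) and CHRNB1 with 15.7 and 12.3 CPM (0.33). The muscarinic receptor CHRM2 was at 6.82 CPM on day 11 and 1.31 CPM on day 5 (1.76). Butyrylcholinesterase, BCHE, was at 2.33 CPM on day 11 and 19.7 CPM on day 5 (-2.63). Of the genes that make, load and recycle acetylcholine, the choline transporter SLC5A7 was at 312 CPM on day 11 and 128 CPM on day 5 (1.28), acetylcholinesterase ACHE at 188 and 85.0 CPM (1.13), the synthetic enzyme CHAT at 18.9 and 12.4 CPM (0.57) and the vesicular transporter SLC18A3 at 64.0 and 74.2 CPM (-0.21). Of 13 cholinergic genes at 10 CPM or more, 3 were at least 4-fold lower, CHRNA3, CHRNA1 and BCHE, where 1.22% of all genes were. None of the 13 was at least 4-fold higher.

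The 20 highest ratios belonged to genes of varied roles, among them neuronal calcium-binding proteins, a channel and a transmitter receptor. HPCAL4 (chromosome 1, 39678648 to 39691689), a neuronal calcium sensor, had the highest, 4.32, with 31.6 CPM on day 11, from 1042 counts, and 0.629 CPM on day 5, from 26 counts. The ratio of its scaled counts was 50.2 (95% exact binomial interval 34.1 to 77.3, for counting error only). CALN1, another neuronal calcium-binding protein, was at 102 CPM on day 11 and 5.03 CPM on day 5 (4.10), and HPCAL1, of the family of HPCAL4, at 161 and 40.7 CPM (1.96). HPCA, also of that family, was lower, with 10.6 CPM on day 11 and 34.2 CPM on day 5 (-1.60). Others among the 20 highest were the receptor phosphatase PTPRT (55.6 and 3.96 CPM, 3.51), the calcium-stimulated adenylyl cyclase ADCY8 (75.4 and 6.38 CPM, 3.37) and the sodium bicarbonate transporter SLC4A10 (54.7 and 4.57 CPM, 3.32). CHD5, a neuronal chromatin remodeller, was at 33.4 CPM on day 11 and 2.20 CPM on day 5 (3.43), and MET, the receptor of hepatocyte growth factor, at 20.5 and 0.991 CPM (3.44). TMEM233, PCDH7, CA10, PDIA2, KIAA1644, NELL1, SFXN3, HS3ST4, RGS7BP, LPL and NCR3LG1 completed this group with KCNK9 and GABRA2, and their ratios ran from 3.07 for NCR3LG1 to 3.62 for GABRA2.

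**Figure D2:**
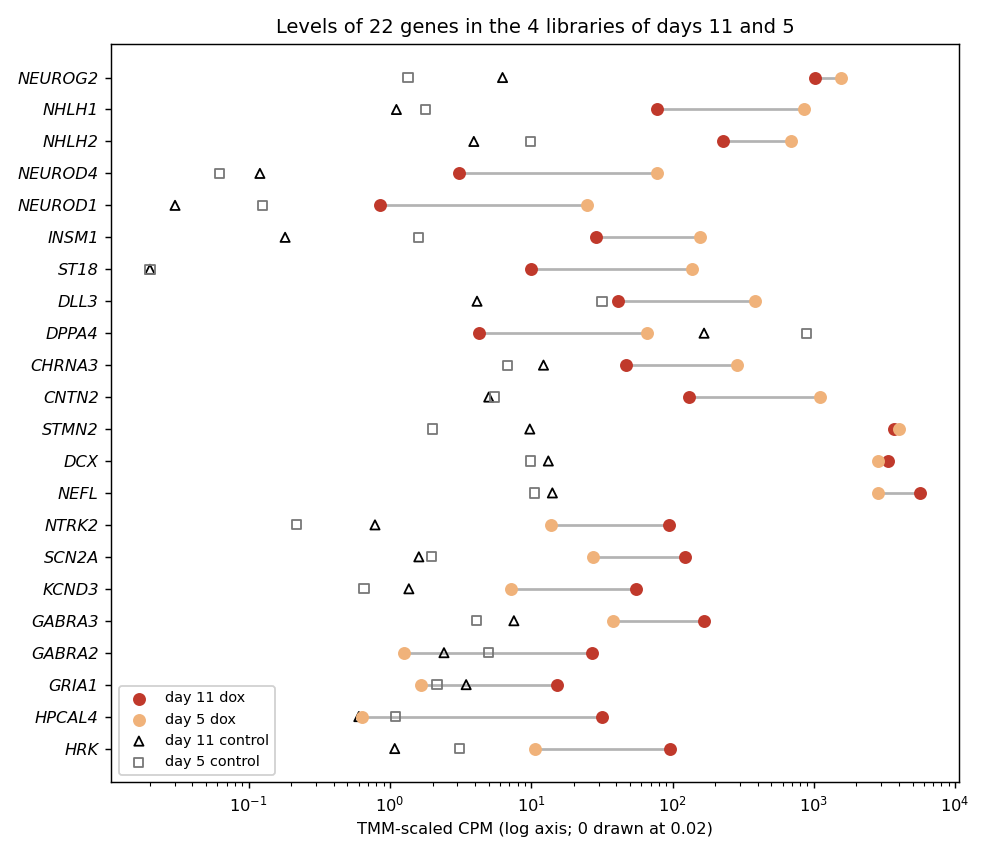
Levels of 22 genes (rows) as TMM-scaled CPM on a log axis, 1 point per library: filled points with doxycycline on day 11 and day 5, joined by a line, and open points without doxycycline. NHLH1, DLL3 and NEUROD4 lie lower on day 11 than on day 5 with doxycycline, SCN2A, GABRA2 and HPCAL4 higher, and STMN2, at 3666 CPM on day 11 and 4019 CPM on day 5, hardly apart.

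Channel genes were more often above 0 than below. Of those at 10 CPM or more, 6 of 9 sodium, 26 of 35 potassium and HCN and 9 of 16 calcium channel genes had ratios above 0. Of all genes at that level 42.3% were above 0. At 1 CPM or more 10 of 14, 35 of 48 and 13 of 20 were above 0, with medians of 0.41, 0.36 and 0.53. With the authors' deposited normalized values the sodium channel median was -0.01. Of 9 sodium channel genes at 10 CPM or more, 3 were at least 4-fold higher and none lower, where 0.741% of all genes were higher. SCN2A, which encodes a main sodium channel of central neurons, was at 122 CPM on day 11 and 27.3 CPM on day 5 (2.12), its auxiliary subunit SCN2B at 10.3 and 1.52 CPM (2.17), and the sodium leak channel NALCN at 27.3 and 5.56 CPM (2.11). SCN3A (238 CPM on day 11 and 212 CPM on day 5) and SCN9A (112 and 114 CPM) differed little, so the alpha subunits differed among themselves. Of 35 potassium and HCN channel genes 4 were at least 4-fold higher and none lower, against the same 0.741% of all genes higher. These were KCNK9 (22.4 CPM on day 11 and 0.943 CPM on day 5, 3.59) and KCNK12 (11.8 and 0.943 CPM, 2.72), both two-pore leak channel subunits, KCND3 (54.7 and 7.23 CPM, 2.76), a subunit of A-type channels, and KCNIP1 (75.0 and 8.70 CPM, 2.97), a calcium-binding partner of those channels. KCNIP4, of the same partner family, was lower (7.33 CPM on day 11 and 25.9 CPM on day 5, -1.69). None of 16 calcium channel genes passed 4-fold, against the same 0.741% of all genes higher and 1.22% lower. The highest ratio of the 16 was that of the L-type subunit CACNA1C (60.6 CPM on day 11 and 19.6 CPM on day 5, 1.58).

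Receptors for GABA were higher although GABA synthesis genes were nearly silent. The 22 GABA and glycine genes at 1 CPM or more had a median of 0.85. Of 14 at 10 CPM or more 4 were at least 4-fold higher and none lower, where 0.741% of all genes were higher. Among these were the GABA-A subunits GABRA2 (26.7 CPM on day 11 and 1.26 CPM on day 5, 3.62), GABRB2 (20.1 and 2.47 CPM, 2.61) and GABRA3 (167 and 37.9 CPM, 2.11). SLC12A5, the chloride exporter KCC2 of mature neurons, was at 27.2 CPM on day 11 and 6.55 CPM on day 5 (1.90), and SLC12A2, the chloride importer NKCC1, at 26.5 and 38.3 CPM (-0.52). The exporter was thus higher and the importer lower on day 11.

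Ionotropic glutamate receptor genes were mostly higher too, with 2 of 14 at least 4-fold higher and none lower, where 0.741% of all genes were higher. GRIA1, an AMPA receptor subunit, was at 15.1 CPM on day 11 and 1.67 CPM on day 5 (2.60), and GRIN3A, an NMDA receptor subunit, at 38.2 and 6.43 CPM (2.40). GRIN2A was at 29.1 CPM on day 11 and 7.66 CPM on day 5 (1.80) and GRIN1, the obligatory NMDA subunit, at 21.7 and 8.58 CPM (1.25). GRIA2 (134 and 79.3 CPM, 0.75) and GRIA4 (131 and 95.1 CPM, 0.45) were higher by less than 2-fold. The kainate subunit GRIK2 was lower, with 37.4 CPM on day 11 and 128 CPM on day 5 (-1.75). Of the vesicular glutamate transporters, SLC17A7 was lower (68.7 and 169 CPM, -1.29) and SLC17A6 hardly different (-0.14).

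Neuropeptide genes separated into higher and lower members. Of 17 granin and neuropeptide genes at 10 CPM or more, 2 were at least 4-fold higher and 2 at least 4-fold lower. Of all genes 0.741% were higher and 1.22% lower by that much. The precursors of neurotensin, NTS (49.5 CPM on day 11 and 6.82 CPM on day 5, 2.69), and of secretogranin II, SCG2 (76.5 and 13.0 CPM, 2.47), were higher, and those of substance P, TAC1 (134 and 34.8 CPM, 1.92), and thyrotropin-releasing hormone, TRH (15.8 and 3.24 CPM, 1.99), had ratios just short of 2 on the scale with 1 CPM added. The precursors of somatostatin, SST (1.61 CPM on day 11 and 33.9 CPM on day 5, -3.74), and enkephalin, PENK (2.79 and 20.5 CPM, -2.50), were lower. Of PENK 20.1% of the exon bases are shared with another gene.

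Surface proteins of axons and synapses differed in both directions. CNTN2, a contactin of growing commissural and motor axons, was at 131 CPM on day 11 and 1111 CPM on day 5 (-3.08). TENM3, a teneurin, was at 60.0 CPM on day 11 and 317 CPM on day 5 (-2.38), and C1QL1, a secreted synaptic organiser, at 3.12 and 37.5 CPM (-3.22). In the same list of 55 postsynaptic and synaptic adhesion genes LRRTM3 (20.1 CPM on day 11 and 1.89 CPM on day 5, 2.87), NCAM2 (60.2 and 10.8 CPM, 2.38) and SLITRK3 (13.4 and 2.05 CPM, 2.23) were at least 4-fold higher. Of the 55 genes 3 were thus at least 4-fold higher and 3 at least 4-fold lower. Of all genes 0.741% were higher and 1.22% lower by that much. Of 47 axon guidance genes 2 were at least 4-fold higher and none was lower, against the same 0.741% of all genes higher. These were SEMA5A (41.3 CPM on day 11 and 5.54 CPM on day 5, 2.69) and EPHA7 (53.5 and 11.0 CPM, 2.18). PLXNA4, a receptor for class 3 semaphorins, was at 754 CPM on day 11 and 231 CPM on day 5 (1.70), and WNT4, a secreted signal, at 10.7 and 0.459 CPM (3.00).

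Most structural genes of the neuron differed little between the days. Of 39 microtubule and axon growth genes at 10 CPM or more none passed 4-fold, where 0.741% of all genes were higher and 1.22% lower. At least 2-fold lower were 4 of the 39, where 4.44% of all genes were, and none was 2-fold higher, where 3.49% were. The median of the 40 at 1 CPM or more was -0.11. GAP43, of axonal growth cones, was at 1796 CPM on day 11 and 1942 CPM on day 5, and MAP2, of dendrites, had a ratio of -0.01. The neurofilament gene NEFL was at 5655 CPM on day 11 and 2852 CPM on day 5 (0.99), whereas its partners NEFM (3049.5 and 3194 CPM, -0.07) and INA (2612 and 2717 CPM, -0.06) were level. NEFL was thus the only one of these 3 to differ by nearly 2-fold, and 38.9% of the exon bases of NEFM are shared with another gene. Synaptic vesicle genes were higher by small amounts: 39 of 50 ratios at 1 CPM or more were above 0, with a median of 0.39. At 10 CPM or more 38 of 48 were, against 42.3% of all genes at that level. Of the 48 genes 1 was at least 4-fold higher, where 0.741% of all genes were. SYT16 alone passed 4-fold (58.3 CPM on day 11 and 13.5 CPM on day 5, 2.03), SNAP25, of the fusion machinery, was at 228 and 105 CPM (1.12), and SYN1, a vesicle phosphoprotein, at 106 and 86.5 CPM (0.29). With the authors' deposited normalized values the medians of these lists were -0.51 for microtubule genes and 0.02 for vesicle genes, beside the median of -0.39 of all genes.

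**Figure D3:**
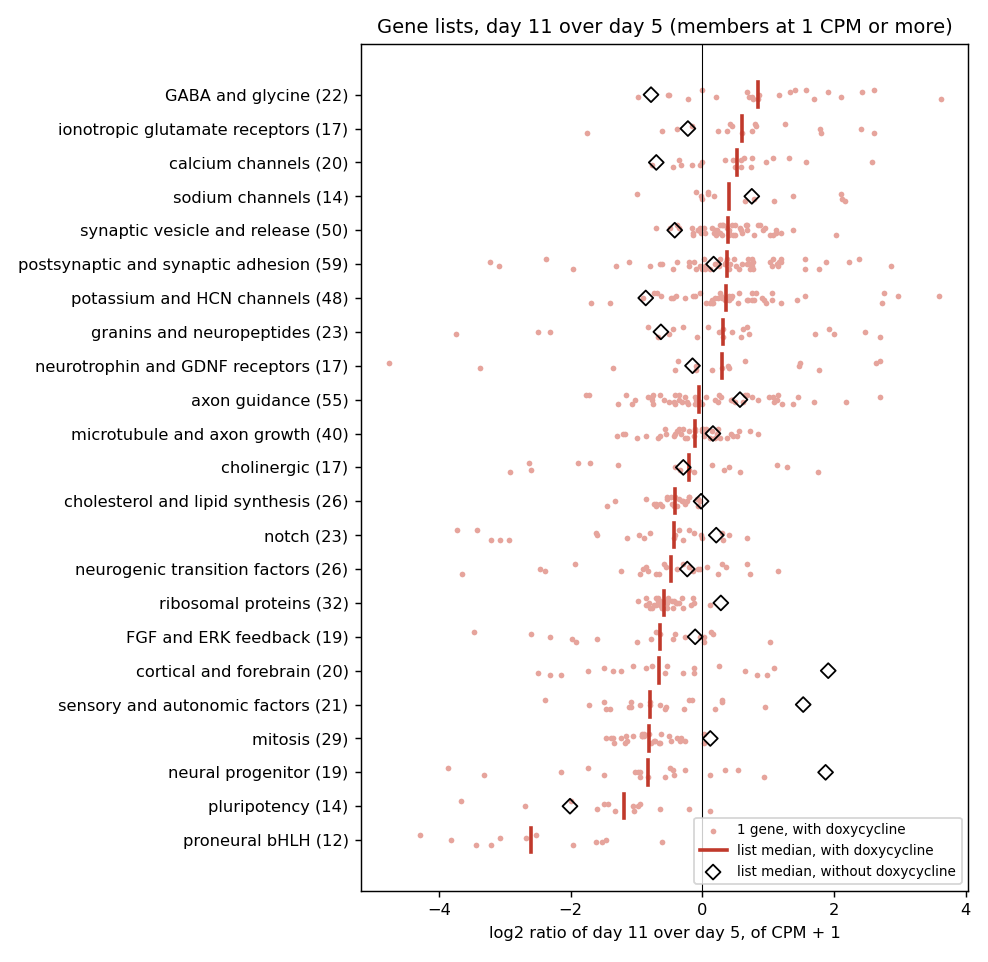
Log2 ratios of day 11 over day 5 in 23 gene lists (rows, number of members at 1 CPM or more in brackets): points are single genes and bars list medians with doxycycline, and open diamonds list medians without doxycycline, 1 library per day. With doxycycline the medians run from -2.60 for proneural bHLH genes to 0.85 for GABA and glycine genes. The neural progenitor and the cortical and forebrain diamonds are among several that lie on the other side of 0 from their bars.

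Genes of growth and metabolism differed by small amounts. Of 32 ribosomal protein genes 31 had ratios below 0, where 57.7% of all genes had. Their median was -0.58, and none passed 2-fold in either direction. RPL3 was at 419.7 CPM on day 11 and 568 CPM on day 5 (-0.44). Such genes share reads with many pseudogene copies, and genes in the lowest quartile of exon length had a median ratio of -0.17, against -0.03 in the highest quartile. The part of transcript length in this result was not tested. All 26 cholesterol and lipid synthesis genes had ratios below 0, among them 25 at 10 CPM or more, against the same 57.7% of all genes. The median of the 26 was -0.42, and the 13 mitochondrially encoded messenger RNAs had a median of -0.17. HRK, a BH3-only death activator induced in neurons deprived of trophic factor, was at 95.8 CPM on day 11 and 10.7 CPM on day 5 (3.04). It was the only one of 21 p53 and apoptosis genes at 10 CPM or more that was at least 4-fold higher, where 0.741% of all genes were. Of 26 stress response genes at 10 CPM or more none passed 4-fold, where 0.741% of all genes were higher and 1.22% lower. ATF3, induced by stress and axon injury, was at 18.4 CPM on day 11 and 6.21 CPM on day 5 (1.42).

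Most marker lists of other cell types summed to less than in the uninduced libraries, but the neural crest and Schwann list summed to 249 CPM on day 11 and 281 CPM on day 5, against 239 and 462 CPM there, and the mesendoderm list was also higher on day 11 with doxycycline. The epithelial list summed to 151 CPM on day 11 and 102 CPM on day 5, against 1913 CPM and 3165 CPM without doxycycline, and the mesenchyme and matrix list to 669 and 805 CPM, against 1537 and 3493 CPM. The endothelial and blood list summed to 5.42 CPM on day 11 and 19.0 CPM on day 5, against 114 and 384 CPM without doxycycline. The mesendoderm list summed to 4.82 CPM on day 11 and 8.82 CPM on day 5, against 4.07 and 12.9 CPM. SOX10, a defining factor of neural crest and Schwann cells, and PECAM1, of endothelium, had 0 counts on both days, and GFAP, of astrocytes, had 1 count on day 11 and 6 counts on day 5. The astroglia and oligodendroglia list summed to 341 CPM on each day. Genes of matrix and of non-neuronal cells were among the 20 lowest ratios: FSTL1, a secreted glycoprotein, was at 23.5 CPM on day 11 and 378 CPM on day 5 (-3.95), and the actin crosslinker FLNC at 10.5 and 197 CPM (-4.11). The mesenchyme and matrix sum, by contrast, was 669 CPM on day 11 and 805 CPM on day 5, and its part in these ratios was not tested. ANO3, CYSLTR2, LDB3, GNG5, SUSD2, PARM1, ARSF, PRSS35 and ESPN were also among the 20 lowest, with ratios from -4.63 for ANO3 to -3.61 for ESPN, and 41.6% of the exon bases of GNG5 overlap a neighbouring gene.

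Without doxycycline more genes differed between the same days. Between day 11 control and day 5 control 285 of 12193 genes were at least 4-fold higher (2.34%) and 566 at least 4-fold lower (4.64%). With library totals in place of TMM these counts were 389 and 454. Of the 85 genes higher with doxycycline 19 were at 10 CPM or more without it, and 2 of these 19 were at least 4-fold higher and 4 at least 4-fold lower. Of all genes tested there 6.98% passed 4-fold either way, against 1.96% with doxycycline. Of the 140 genes lower with doxycycline 87 were at that level, and 16 were at least 4-fold lower and 8 at least 4-fold higher. The neural progenitor list had a median of -0.83 with doxycycline and 1.87 without it, and the cortical and forebrain list one of -0.66 and one of 1.91. PAX3, lower with doxycycline, was at 21.9 CPM in day 11 control and 1.40 CPM in day 5 control (3.25), and ZIC2 at 218 and 94.8 CPM (1.19). The uninduced day 5 library had 15% of its counts in mitochondrial genes and the uninduced day 11 library 4.4%, and the median of the mitochondrial messenger RNAs there was -2.19. Whether these differences between the pairs exceed the spread between cultures was not tested, since each rests on 1 library.

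Most genes past 4-fold with continued doxycycline changed in the same direction in the run with 2 libraries a group, in which doxycycline had been withdrawn. There 6395 of 20142 genes rose on day 12 (31.7%) and 6500 fell (32.3%) against day 6, by edgeR's quasi-likelihood test at an adjusted p under 0.05 (n = 2 per group). The 2 libraries of a group carry different names, hES-N2G1 and hES-N2G2, but what these names stand for is not given in the sources used here. The p-values thus measure only the spread between libraries within groups, estimated over all 8 libraries of that run, those with FGF2 included. Of the 85 genes at least 4-fold higher on day 11, 82 rose on day 12, 1 fell and 2 were not called, and the 82 are 96.5% of the 85 and 2.02% of the genes that rose among those at 10 CPM or more with doxycycline. Among those genes 35.9% rose and 36.9% fell. Of the 140 genes lower on day 11, 139 were in this fit: 133 fell, 4 rose and 2 were not called, and the 133 are 95.7% of the 139 and 3.18% of the genes that fell. The median log2 change on day 12 was 4.84 for the genes higher on day 11 and -4.39 for those lower. The groups of libraries differed in NEUROG2 itself, which was at 52.0 ± 3.76 CPM on day 12 and 7626 ± 116 CPM on day 6 (SD, n = 2, log2 change -7.20, SE 0.09, adjusted p = 1.2e-16 by edgeR).

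NHLH1 fell to 15.9 ± 0.748 CPM on day 12, against 2053 ± 18.6 CPM on day 6 (SD, n = 2, log2 change -7.02, SE 0.10, edgeR adjusted p = 6.6e-16). NEUROD1 was at 6.28 ± 0.287 CPM on day 12 and 300.3 ± 7.65 CPM on day 6 (log2 change -5.58). NTRK2 rose to 87.5 ± 1.41 CPM on day 12, against 0.730 ± 0.365 CPM on day 6 (log2 change 6.90, edgeR adjusted p = 1.1e-13). NHLH1, NEUROD1 and NTRK2 therefore took the same direction in both pairs. NEUROG2 was also lower on the later day in both pairs, and its part in these changes was not tested. Of the lists, 13 of 14 proneural bHLH genes fell and none rose, 30 of 30 mitosis genes fell, 17 of 25 GABA and glycine genes rose and 4 fell, and 15 of 20 ionotropic glutamate receptor genes rose and 3 fell. The runs differ in line name, days and sequencing run, so sizes are not compared between them.

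**Figure D4:**
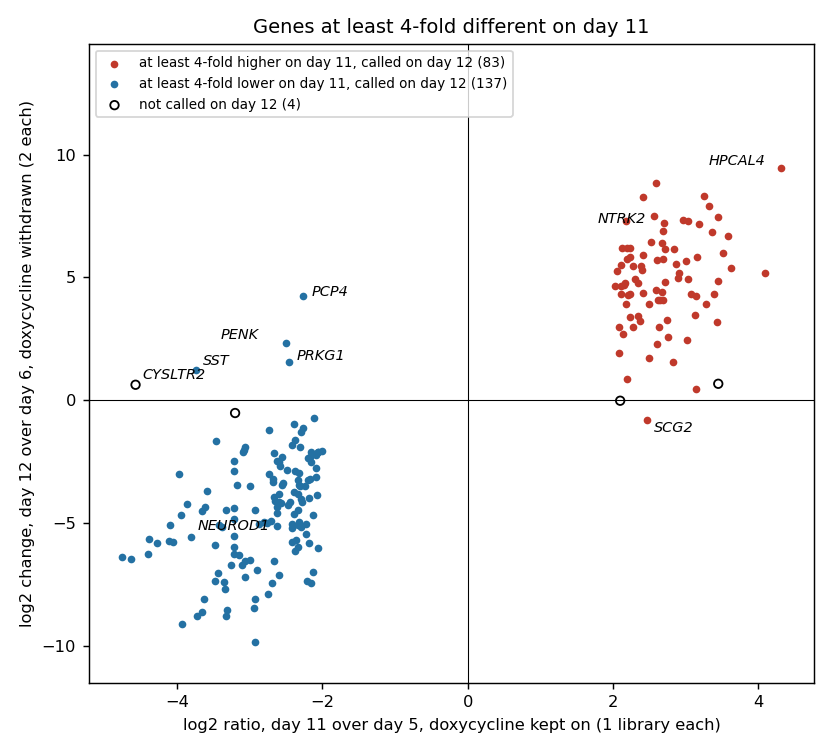
Log2 ratio of day 11 over day 5 with doxycycline kept on (horizontal axis, 1 library each) against log2 change of day 12 over day 6 with doxycycline withdrawn (vertical axis, edgeR, 2 libraries each), 1 point per gene at least 4-fold different on day 11. Of these genes 82 lie above 0 and 133 below 0 on both axes as called genes, and SST, PENK, PRKG1, PCP4 and SCG2 are called in the opposite direction.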

How the data were processed

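Polyadenylated RNA was sequenced with the TruSeq RNA v2 kit as 50-cycle single-end reads, per the labels' protocols. The authors deposited whole read counts per Ensembl gene, and the submitters' processing notes name Subread, featureCounts 1.5.0 and the build GRCh38, with no strand setting. A deposited normalized table (signal values, read for gene names and a scaling alternative) multiplies each count by 1 of 6 factors. Names of 26282 identifiers came from that table and of 30987 from the GENCODE 29 annotation, which also gave positions. A further 3370 identifiers had no name. In the first run 41723 genes had counts. For the days 11 and 5, counts were scaled by TMM over the 5 libraries of the run (edgeR 4.0.16, R 4.3.3). The ratio was the difference of log2(CPM + 1), called at 2 or -2 among genes at 10 CPM or more in either library. List medians used members at 1 CPM or more. Day 12 control was compared with day 6 control by edgeR's quasi-likelihood test on all 8 libraries of that run, with Benjamini-Hochberg adjustment at 0.05, checked on simulated data. Each gene's exon bases shared with other genes were computed, since the kit does not mark strand. Named genes were the 20 highest and 20 lowest ratios and the members of the lists, and the members and lists were chosen with earlier results of these data known. Totals ran from 28443657 to 47159475 counts in the first run. Intervals cover counting error only. Libraries with FGF2 and the day 0 library entered only the shared fit or scaling. Some genes that meet the naming rule are not reported here.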

Additional observations from a re-analysis of the deposited data

Results flagged for a closer look

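Of 46 gene lists with a median in both pairs, 27 had medians on opposite sides of 0 with and without doxycycline, and in 5 of them both medians were at least 0.5 from 0. Each median comes from 1 library per day, and the difference was not tested. For these 5 lists, the medians of day 11 over day 5 with doxycycline and without it were -0.83 and 1.87 for neural progenitor genes, -0.66 and 1.91 for cortical and forebrain genes, and -0.79 and 1.53 for sensory and autonomic factors. They were 0.85 and -0.78 for GABA and glycine genes and 0.53 and -0.70 for calcium channels.

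Among the genes at least 4-fold different on day 11, 5 changed in the other direction on day 12, and the difference between the pairs was not tested. SST had a ratio of -3.74 on day 11, but was at 31.4 ± 1.15 CPM on day 12 and 13.2 ± 1.53 CPM on day 6 (SD, n = 2). PENK had a ratio of -2.50, but was at 18.1 ± 1.39 CPM on day 12 and 3.63 ± 0.148 CPM on day 6. PCP4, a calmodulin-binding peptide, had a ratio of -2.26, but was at 9.04 ± 0.0541 CPM on day 12 and 0.472 ± 0.182 CPM on day 6. PRKG1, a kinase gene outside the lists that was chosen after its values were seen, had a ratio of -2.46 (11.5 CPM on day 11 and 67.6 CPM on day 5) and a log2 change of 1.54 on day 12. SCG2 had a ratio of 2.47, but was at 60.4 ± 3.46 CPM on day 12 and 106 ± 1.47 CPM on day 6.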

How the results depend on the processing

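The counts of genes at least 4-fold different with doxycycline were 85 higher and 140 lower. They were 39 and 62 with a pseudocount of 5 CPM, and 221 genes were lower with the authors' deposited values. With a filter at 20 CPM 91 were lower, and at a 2-fold threshold 400 were higher and 509 lower. Without doxycycline the counts of 285 and 566 became 175 and 289 with a pseudocount of 5 CPM and 1243 and 1601 at 2-fold. The cause was the alternative's own construction for pseudocount, filter and threshold. For the deposited values, which received the same constant in every library and no further scaling to library totals, the cause was not tested. Of 94 named genes past 4-fold, 94 stayed past it under library totals, pairwise TMM and DESeq2 size factors, 88 under the deposited values and 63 with a pseudocount of 5 CPM, and none of the 94 changed sign under these. For day 12 against day 6, leaving out 1 library gave 5526 to 5693 genes that rose and 5663 to 5795 that fell. The replicate block gave 6534 and 6666, and same-numbered libraries of these groups correlated at 0.0248 in their deviations, so the numbers were not taken to pair them. Day 6 control and day 6 FGF2, which share the fit, correlated at 0.225. No comparison of day 11 with day 5 has a replicate to leave out.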
